A study of Mus musculus with 2 samples.

Results

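The urea cycle genes and their partners in ammonia handling are described here as DNase-seq found their chromatin in embryonic mouse liver. The list holds 10 genes, given by symbol, of 21938 protein-coding genes in the annotation: Nags, Cps1, Otc, Ass1, Asl, Arg1, Slc25a15, Slc25a13, Gls2 and Glul. Each gene was taken with its body and 50 kb to each side. Its starts are the transcript starts of the basic GENCODE annotation, and a peak lies at a start where its midpoint is within 1 kb of one. There are 2 libraries, technical replicate 7 and technical replicate 1, both from 1 biological sample of liver tissue of B6NCrl embryos, with males and females pooled, at embryonic day 11.5. Coordinates are on the mm10 assembly. No mutation or treatment is named, so there is 1 group and no comparison between conditions. DNase-seq exposes nuclei to the nuclease DNase I and sequences the cut ends, which come first from accessible DNA.

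The urea cycle turns ammonia, the toxic nitrogen waste of amino acid breakdown, into urea, and in adult mammals the complete cycle runs in hepatocytes. Its first steps lie in the mitochondrion: N-acetylglutamate synthase (Nags) makes the obligatory activator of carbamoyl phosphate synthetase (Cps1), and ornithine transcarbamylase (Otc) makes citrulline. The later steps, by argininosuccinate synthase (Ass1), argininosuccinate lyase (Asl) and arginase (Arg1), lie in the cytosol. Adult liver keeps 2 systems apart: hepatocytes around the portal vein make urea and hold the liver-type glutaminase Gls2, and a narrow ring around the central vein holds glutamine synthetase (Glul), which binds the ammonia that is left.

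The genes are spread over 8 chromosomes. On the plus strand lie Cps1 (chr1:67123026-67231259), Otc (chrX:10252305-10321024), Ass1 (chr2:31470207-31520672), Nags (chr11:102145513-102149477), Gls2 (chr10:128194457-128210004) and Glul (chr1:153899944-153909723). On the minus strand lie Asl (chr5:130011258-130029247), Arg1 (chr10:24915221-24927484), Slc25a15 (chr8:22375551-22398597) and Slc25a13 (chr6:6041218-6217173). Distances below run from the nearest start of the gene in the direction of transcription, so that a minus sign means upstream.

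Technical replicate 7 had 86036 listed peaks with a median density of DNase cuts of 0.625, and technical replicate 1 had 42422 with a median density of 1.26. Of these, 46.2% (95% Clopper-Pearson interval 45.9 to 46.6) and 89.9% (89.7 to 90.2) overlapped a peak of the other library by at least 1 bp and are called shared. The depth of the libraries is unknown. Their densities fell on whole multiples of a step that was 2.52 times finer in technical replicate 7. A peak given as missing is missing from the list used. The libraries are technical replicates, so no value below carries a biological error and no p-value was computed. Intervals cover counting error only.

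The promoters of 4 of the genes are shown first, because they hold the contrast that the results turn on: Otc had no peak at a start, Nags had the weakest, and Ass1 and Glul were open. The RefSeq promoter table, on GRCm38.p6, held a promoter for 6 of the 10 genes: Nags, Otc, Ass1, Slc25a15, Slc25a13 and Glul. Cps1, Asl, Arg1 and Gls2 had no entry, so their promoters were not searched for motifs. Each runs from 250 bases before to 50 bases after the RefSeq start, 5′ to 3′ along the gene. Capitals mark bases under a footprint, a short stretch protected from DNase I, of either library. Otc lies on the plus strand at chrX:10252055-10252354, Nags on the plus strand at chr11:102145263-102145562, Ass1 on the plus strand at chr2:31470020-31470319 and Glul on the plus strand at chr1:153899679-153899978.
Otc: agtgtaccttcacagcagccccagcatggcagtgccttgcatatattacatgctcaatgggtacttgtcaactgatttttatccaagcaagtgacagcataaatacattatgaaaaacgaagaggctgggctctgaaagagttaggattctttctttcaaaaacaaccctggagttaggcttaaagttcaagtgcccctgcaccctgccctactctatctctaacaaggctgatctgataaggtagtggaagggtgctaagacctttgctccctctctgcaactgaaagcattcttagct
Nags: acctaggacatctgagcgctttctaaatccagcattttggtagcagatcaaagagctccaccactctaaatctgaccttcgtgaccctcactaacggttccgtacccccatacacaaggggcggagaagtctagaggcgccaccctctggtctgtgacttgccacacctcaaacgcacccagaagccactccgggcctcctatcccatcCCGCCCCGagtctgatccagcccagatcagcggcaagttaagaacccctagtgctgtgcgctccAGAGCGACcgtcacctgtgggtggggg
Ass1: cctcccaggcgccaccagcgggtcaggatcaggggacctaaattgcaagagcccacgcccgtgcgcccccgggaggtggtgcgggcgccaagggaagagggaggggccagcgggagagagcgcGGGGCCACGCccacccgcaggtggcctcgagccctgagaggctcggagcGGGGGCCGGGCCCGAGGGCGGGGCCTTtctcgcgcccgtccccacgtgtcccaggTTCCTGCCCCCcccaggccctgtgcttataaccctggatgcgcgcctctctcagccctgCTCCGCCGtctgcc
Glul: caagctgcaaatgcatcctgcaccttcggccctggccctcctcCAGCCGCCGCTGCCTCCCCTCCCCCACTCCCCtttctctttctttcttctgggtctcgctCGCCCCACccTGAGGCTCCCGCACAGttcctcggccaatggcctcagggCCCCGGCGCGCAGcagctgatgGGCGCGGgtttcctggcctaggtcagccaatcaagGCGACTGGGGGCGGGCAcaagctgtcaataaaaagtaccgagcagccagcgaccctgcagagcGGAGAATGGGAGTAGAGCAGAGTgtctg
The Otc promoter holds 1 CpG in its 300 bases and a GC content of 44.3%, and no base of it was under a footprint. The Nags promoter holds 14 CpGs, the Glul promoter 17 and the Ass1 promoter 27, with GC contents of 57.7%, 64.3% and 74.0%. Footprints covered 16 bases of Nags, 56 of Ass1 and 116 of Glul.

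Open sites away from starts are shown next, as the plus strand of GRCm38.p6, with footprints again in capitals. The first pair lies in introns of Cps1, at chr1:67181270-67181488 and chr1:67144033-67144261, and was listed in technical replicate 7 alone. The third lies in an intron of Ass1, at chr2:31483021-31483231, and was shared. The fourth lies near Glul, in an intron of the neighbouring Teddm2, at chr1:153895016-153895252, in technical replicate 7 alone. The last is an intergenic shared site near Slc25a15, at chr8:22433053-22433294. Each is the strongest peak of technical replicate 7 away from starts in its gene's window, or for the second Cps1 site the next strongest. The genes themselves were not picked by strength: the strongest such peaks of Nags (density 2.63) and Gls2 (2.06) are not printed.
Cps1 intron, stronger site: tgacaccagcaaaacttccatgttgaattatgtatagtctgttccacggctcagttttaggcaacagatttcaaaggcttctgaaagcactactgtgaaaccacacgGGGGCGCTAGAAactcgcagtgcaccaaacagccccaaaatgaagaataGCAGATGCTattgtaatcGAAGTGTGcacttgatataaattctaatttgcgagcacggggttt
Cps1 intron, weaker site: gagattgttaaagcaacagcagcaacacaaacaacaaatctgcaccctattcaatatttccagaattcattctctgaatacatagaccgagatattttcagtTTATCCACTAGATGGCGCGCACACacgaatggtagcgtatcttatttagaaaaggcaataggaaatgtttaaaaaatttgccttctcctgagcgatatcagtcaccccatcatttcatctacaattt
Ass1 intron: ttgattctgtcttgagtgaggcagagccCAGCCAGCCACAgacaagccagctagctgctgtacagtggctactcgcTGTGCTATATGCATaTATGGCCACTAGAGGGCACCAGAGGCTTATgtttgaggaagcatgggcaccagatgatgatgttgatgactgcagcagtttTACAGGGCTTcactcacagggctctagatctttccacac
Glul upstream: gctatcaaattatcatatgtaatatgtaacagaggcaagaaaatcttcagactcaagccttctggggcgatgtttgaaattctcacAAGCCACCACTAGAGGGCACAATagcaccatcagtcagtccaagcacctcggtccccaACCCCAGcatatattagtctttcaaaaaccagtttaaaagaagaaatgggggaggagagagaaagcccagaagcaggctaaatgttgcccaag
Slc25a15 upstream: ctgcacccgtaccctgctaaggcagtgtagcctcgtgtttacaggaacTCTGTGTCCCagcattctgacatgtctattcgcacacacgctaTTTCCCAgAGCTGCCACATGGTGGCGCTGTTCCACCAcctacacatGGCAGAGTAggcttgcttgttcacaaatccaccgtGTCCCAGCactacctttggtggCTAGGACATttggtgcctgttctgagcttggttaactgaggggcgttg
The weaker Cps1 site, the Ass1 site and the Glul site each hold 1 match to the CTCF consensus, at bases 107 to 118, 97 to 108 and 93 to 104 from the left end, and each match lies wholly inside a footprint. CTCF is a DNA-binding protein that takes part in folding chromatin into loops. Of the 52996 peaks of technical replicate 7 away from any start, 10.7% hold its consensus in 200 bp around the midpoint. The printed sites are examples and give no share of their own. The Slc25a15 site holds the FOXA letters TGTTTAC at bases 36 to 42, outside any footprint. The C/EBP letters TTGCNNAA lie at bases 57 to 64 of the stronger Cps1 site, on the minus strand, and at 229 to 236 of the Glul site. The stronger Cps1 site also holds the TATA box letters TATAAA at bases 190 to 195. None of these C/EBP and TATA box matches touches a footprint.

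A shared peak lay at a start of 7 of the 10 genes: Nags, Ass1, Asl, Slc25a15, Slc25a13, Gls2 and Glul. Cps1, Otc and Arg1 had no start peak in either library, as was so for 34.6% of all protein-coding genes. Over all protein-coding genes the share with such a peak was 59.1%, so the count for these genes is near the background. The same 7 genes had a peak at a start in each library alone, against a background of 65.0% in technical replicate 7 and 59.6% in technical replicate 1. The list was drawn up with Ass1, Gls2 and Glul named as its open promoters, against closed liver-restricted ones that were not named. So the open state of those genes and the presence of closed starts are a description, not a finding. Nags, Asl, Slc25a15 and Slc25a13 were not named as open, and they were open as well, as were 59.1% of all protein-coding genes. Cps1, Otc and Arg1 were not named as open either, and they were closed. The sample is bulk tissue, in which fewer cells of a type and less accessibility per cell cannot be told apart.

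**Figure D1:**
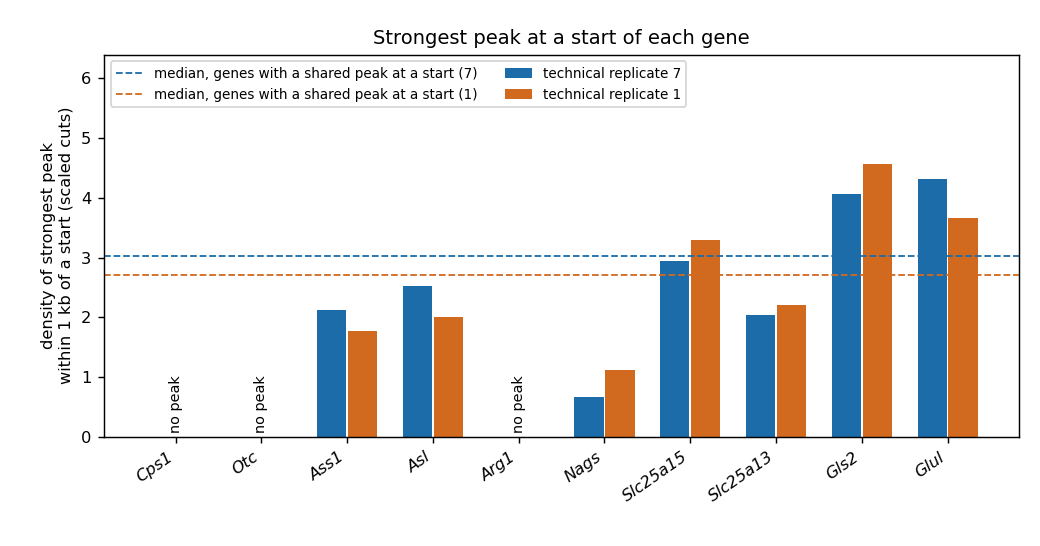
Density of the strongest peak within 1 kb of a start (y axis, scaled DNase cuts) for each gene, in technical replicate 7 (blue) and technical replicate 1 (orange). Dashed lines give the medians over all protein-coding genes with a shared peak at a start, 3.03 and 2.72. Gls2 and Glul lie above both lines, Nags is the lowest of the open genes, and Cps1, Otc and Arg1 have no peak.

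Entry of ammonia into the cycle showed 1 weakly open and 2 closed starts. Nags had peak densities at its start of up to 0.665 in technical replicate 7 and 1.12 in technical replicate 1. These stood at percentiles 53.3 and 42.0 of all peaks of each library, but at 6.82 and 12.7 among the strongest start peaks of open protein-coding genes. In technical replicate 7 the open DNA at Nags was split into 3 peaks that reached 0.521, 0.449 and 0.665, side by side between chr11:102145421-102146470. Nags was the least open of the 7 genes in both libraries, and its start is also that of the overlapping gene Gm11586, so the peaks cannot be given to either gene alone. Cps1, the enzyme that fixes ammonia into carbamoyl phosphate, had neither a peak nor a hotspot, a broader region of raised cutting, at its start. Otc, which joins carbamoyl phosphate to ornithine, had no peak at either of its 2 annotated starts. A single hotspot of 220 bp in technical replicate 7 lay over an Otc start, at a −log10 false discovery rate (FDR) of 1.65, and technical replicate 1 had none there.

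The cytosolic steps were open except for the last. Ass1, which joins citrulline to aspartate, had a peak over its start at chr2:31470027-31470340 with a density of 2.12 in technical replicate 7, and an overlapping one of 1.77 in technical replicate 1. These are percentiles 87.8 and 67.8 of all peaks and 34.1 and 27.9 among open genes. A second, weaker shared peak followed inside the gene at 0.671 kb, with densities of 0.613 and 0.818.

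Asl, which releases arginine and fumarate, was open at separate annotated starts. The start inside the GENCODE gene body carried the strongest Asl peak of technical replicate 7, at chr5:130024256-130024504, with a density of 2.53, and an overlapping peak of technical replicate 1 with 1.86. The peak at the 5′ end of the gene, at chr5:130029184-130029505, had a density of 1.96 in technical replicate 7 and 2.01 in technical replicate 1, and it is shared with Crcp, a gene read in the opposite direction from the same place. So the stronger of these starts differed between the libraries.

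Arg1, which splits arginine into urea and ornithine, had no peak at its start, but it was not blank. Hotspots of both libraries reached within 1 kb of the start. In technical replicate 7 they had −log10 FDR values of 1.97 and 1.61, and in technical replicate 1 of 2.63, 1.77 and 1.52. The lowest hotspot value under any listed peak was 3 in both libraries, so these lay under the level at which peaks were listed. Technical replicate 1 also had 3 footprints there, at 378, 387 and 400 bp inside the gene. A second annotated gene, Gm36172, also starts within 1 kb of these hotspots.

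The mitochondrial carriers of the cycle were both open. Slc25a15, which exchanges ornithine for citrulline across the inner membrane, had a start peak at chr8:22398485-22398775 with a density of 2.94 in technical replicate 7, and one of 3.29 in technical replicate 1. They stood at percentiles 48.5 and 65.0 among open genes, the third highest of the 10 genes in both libraries. The noncoding gene 1810012K16Rik also starts there. Slc25a13, or citrin, which supplies the aspartate used by Ass1, had a start peak at chr6:6217008-6217320 with a density of 2.04 in technical replicate 7, and one of 2.20 in technical replicate 1. These are percentiles 32.9 and 38.0 among open genes.

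The enzymes on either side of glutamine had the strongest starts of the 10 genes. Both genes were named as open when the list was drawn up, so their place in this order is a description too. Gls2, which frees ammonia from glutamine, had a peak at chr10:128194248-128194503 with a density of 4.07 in technical replicate 7, and one of 4.57 in technical replicate 1, at percentiles 70.0 and 90.5 among open genes. Glul, which makes glutamine from glutamate and ammonia, had a peak at chr1:153899711-153899983 with 4.32 in technical replicate 7, and one of 3.66 in technical replicate 1, at percentiles 74.5 and 74.2. These peaks also lie at starts of Mir8114 and Teddm2, so they cannot be given to Glul alone. Glul was first of the 10 genes in technical replicate 7 and Gls2 in technical replicate 1, so their order is not fixed by these data. The order below them was Slc25a15, then Asl, Ass1 and Slc25a13, which changed places between the libraries, and Nags last in both.

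CpG content around the 5′ end ran with the split between open and closed starts. It was measured as CpGs observed over expected in 1000 bp, and the protein-coding genes were sorted into 10 near-equal groups (deciles) by it. Otc, with a ratio of 0.0435, was in the lowest decile, and Cps1 (0.202) and Arg1 (0.238) were in the third. The open genes lay in deciles 6 to 8, between 0.554 for Slc25a13 and 0.781 for Gls2. The median was 0.726 over protein-coding genes with a shared peak at a start and 0.196 over those without. The share of genes open in both libraries was 4.51% in the lowest decile and 17.9% in the third. In deciles 6, 7 and 8 the shares were 83.1%, 90.7% and 93.3%. When each of the 10 genes is given the share of its own decile, the shares sum to 6.68, beside the 7 found open.

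**Figure D2:**
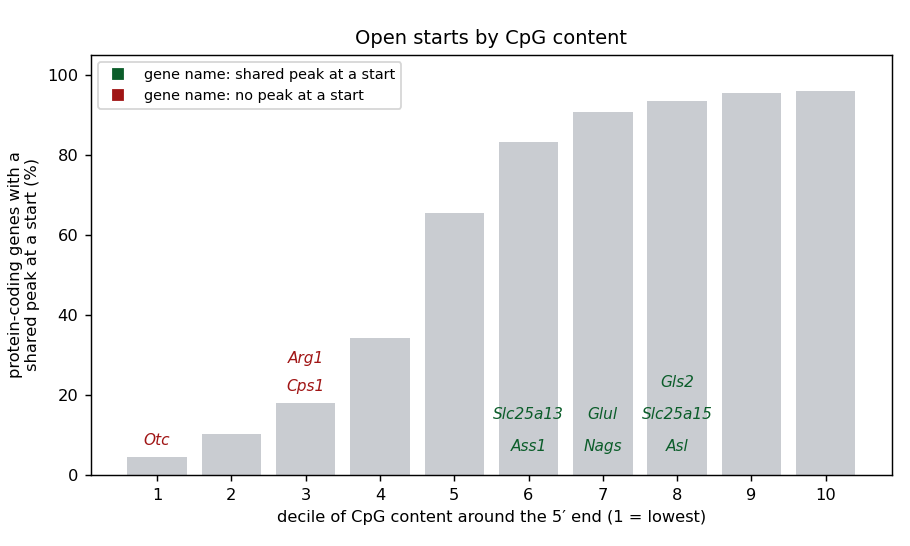
Share of protein-coding genes with a shared peak at a start (y axis, %) in each decile of CpG content around the 5′ end (x axis, 1 the lowest). Gene names are placed in their decile, green for a shared peak at a start and red for none: the 3 closed genes sit in deciles 1 and 3 and the 7 open ones in deciles 6 to 8.

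Hotspots of the same libraries also gave values below the peak limit. Every listed peak lay in a hotspot, with a value of at least 3. So the hotspots at the 7 open genes follow from their peaks and are no second measure of the split. For Glul the highest −log10 FDR at a start was 94.8 (technical replicate 7) and 27.7 (technical replicate 1). Gls2 had 69.6 and 29.2, and Slc25a15 had 79.9 and 29.1. Those 3 genes lay above the medians over open genes, 64.9 and 20.3. Asl had 58.3 and 19.6, Slc25a13 had 40.1 and 15.4, Ass1 had 36.2 and 12.4, and Nags had 7.78 and 6.13. Among the protein-coding genes with no start peak in either list, 84.5% had no hotspot at a start, as Cps1 had none. A hotspot of technical replicate 7 reached a start in 14.1% of them, as at Otc, a hotspot of technical replicate 1 in 5.55%, and hotspots of both libraries in 4.15%, as at Arg1. Counted by hotspots of both libraries, 8 of the 10 genes had an open start, against 64.5% of all protein-coding genes.

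**Figure D3:**
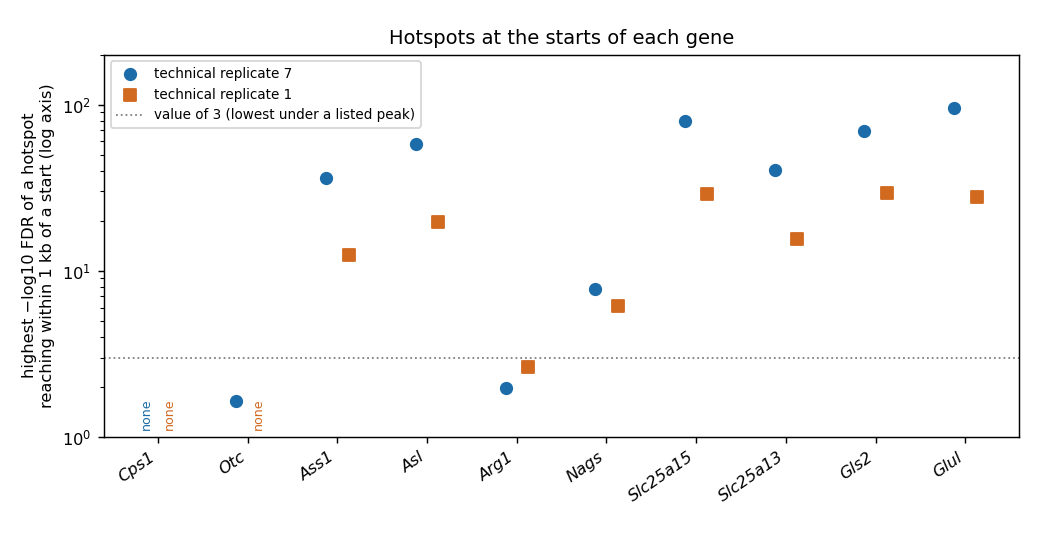
Highest −log10 FDR of a hotspot reaching within 1 kb of a start (y axis, log scale) for each gene, in technical replicate 7 (blue circles) and technical replicate 1 (orange squares). The dotted line marks 3, the lowest value under a listed peak. Arg1 and Otc lie under it, and Cps1 has no hotspot. The 7 open genes lie above it, which follows from their having a listed peak.

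A separate list of technical replicate 1 gives single positions with an FDR below 0.05. Within 1 kb of a start it held positions for 9 of the 10 genes and for 68.0% of all protein-coding genes. It held none for Cps1, 16 for Otc and 310 for Arg1. The open genes had between 1233 positions (Slc25a15) and 1984 (Slc25a13), and the median over open protein-coding genes was 1229. The lowest FDR was 0.0413 at Otc and 0.00133 at Arg1, against 1.2e-06 at Nags, the highest of the open genes. Among genes with no start peak in technical replicate 1, 20.8% had any such position.

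Footprints within 1 kb of a start were found at the open genes and at Arg1. The share of protein-coding genes with such footprints, among all or among those with no start peak, is not given here. So the footprints at Arg1 have no background to be set against. The lists of the libraries come from different processing, so their numbers are compared within a library only. Glul had 6 footprints in technical replicate 7 and 12 in technical replicate 1, beside medians over open genes of 3 and 8. Asl had 5 and 10, Ass1 had 3 and 6, Slc25a15 had 2 and 7, and Slc25a13 had 2 and 9. Gls2 had 1 and 7, and Nags had 1 and 12. At Gls2 the footprint of 20 bp in technical replicate 7, centred at −33 bp, lay inside one of 25 bp in technical replicate 1. At Glul a footprint of 19 bp in technical replicate 7, centred at −202 bp, lay inside one of 32 bp in technical replicate 1, and it is the first run of capitals in the Glul promoter above.

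**Figure D4:**
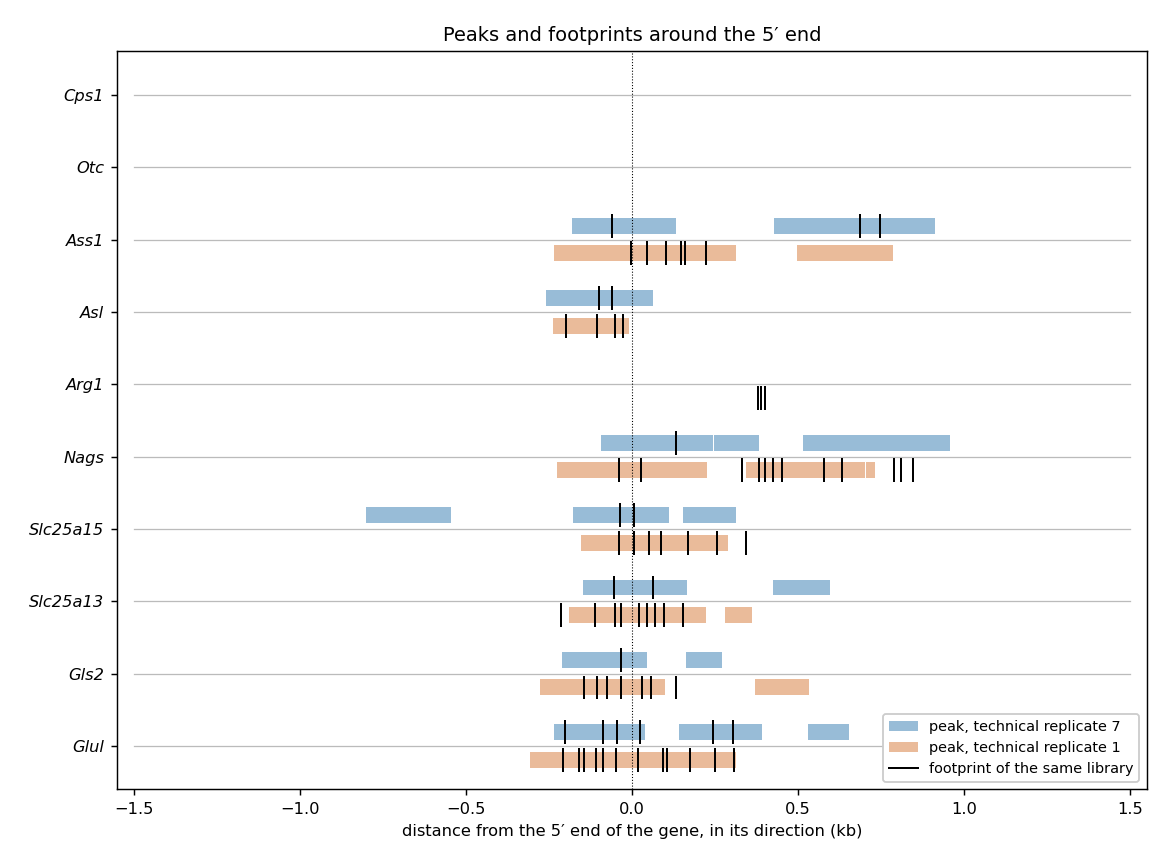
Peaks (bars) and footprints (black ticks) of technical replicate 7 (blue, upper) and technical replicate 1 (orange, lower) by distance from the 5′ end of each gene (x axis, kb, in the direction of the gene). The open genes have peaks of both libraries over the 5′ end, Arg1 has 3 footprints of technical replicate 1 and no peak, and Cps1 and Otc are blank. For Asl only its 5′ end is drawn, not the start inside the gene.

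In the 6 promoters with sequence, the GC-rich letters GGGCGG, bound by SP1 and its relatives, were found on either strand in 4: Ass1, Nags, Slc25a15 and Glul. They occur in 35.6% of the 32817 promoters of the table. In each of the 4, a match lay wholly inside a footprint. Other matches lay outside any footprint, in Nags at −132 to −127 and in Slc25a15 at −44 to −39 and 7 to 12. The share of such matches under footprints over all promoters is not given here. Counting the RefSeq start as 0, the match inside a footprint spans −63 to −58 in Ass1 and −41 to −36 in Nags on the minus strand. It spans −9 to −4 in Slc25a15 and −33 to −28 in Glul. The RefSeq start is not the GENCODE start used for the other distances. The nearest GENCODE start lies 63 bp from it in Ass1, 36 in Nags, 24 in Slc25a15 and 15 in Glul. The match in Ass1 stands in the longest run of capitals shown for that promoter. The TCF letters ATCAAAG, the target of the Wnt pathway's DNA-binding factors, occurred in Nags, at −204 to −198 and outside footprints, and in 3.73% of all promoters. The letters for HNF4 (CAAAGTCCA), C/EBP (TTGCNNAA) and FOXA (TGTTTAC) occurred in none of the 6, and in 0.475%, 10.8% and 3.65% of all promoters, in that order. The letters for CRE (TGACGTCA) and NRF1 (GCGCATGCG), and the CTCF consensus, were also in none, and in 1.79%, 1.75% and 0.558% of all. The GATA letters AGATAAG were in none of the 6 and in 3.05% of all promoters. The ETS letters CCGGAAG were likewise in none and in 8.86% of all. The same held for the TATA box, searched as TATAAA and found in 13.6% of all. A match is a run of letters and not a shown binding site, and these windows are short.

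Across the 10 windows, technical replicate 7 had 94 peaks and technical replicate 1 had 51. Of the 94, 19 lay at a start of the genes themselves, 20 at a start of another gene and 55 away from any start, here called distal: 25 in introns, 7 in exons and 23 between genes. Of these 55, 21 were shared (38.2%), against 29.8% of the 52996 distal peaks of technical replicate 7 over the genome. All 20 distal peaks of technical replicate 1 in the windows were shared, against 93.4% of its 16170. A shared peak of any kind lay in 9 of the 10 windows, where 80.8% of protein-coding genes had one, and a distal shared peak in 7, where 60.1% did. Distal shared peaks were counted by the place of the technical replicate 7 peak. At Glul the overlapping peak of technical replicate 1 was not distal. A distal peak of technical replicate 7 lay in 9 windows, all but that of Otc, where 83.9% of protein-coding genes had one. The genes had a median of 1.5 distal shared peaks per window, and all protein-coding genes a median of 1.

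**Figure D5:**
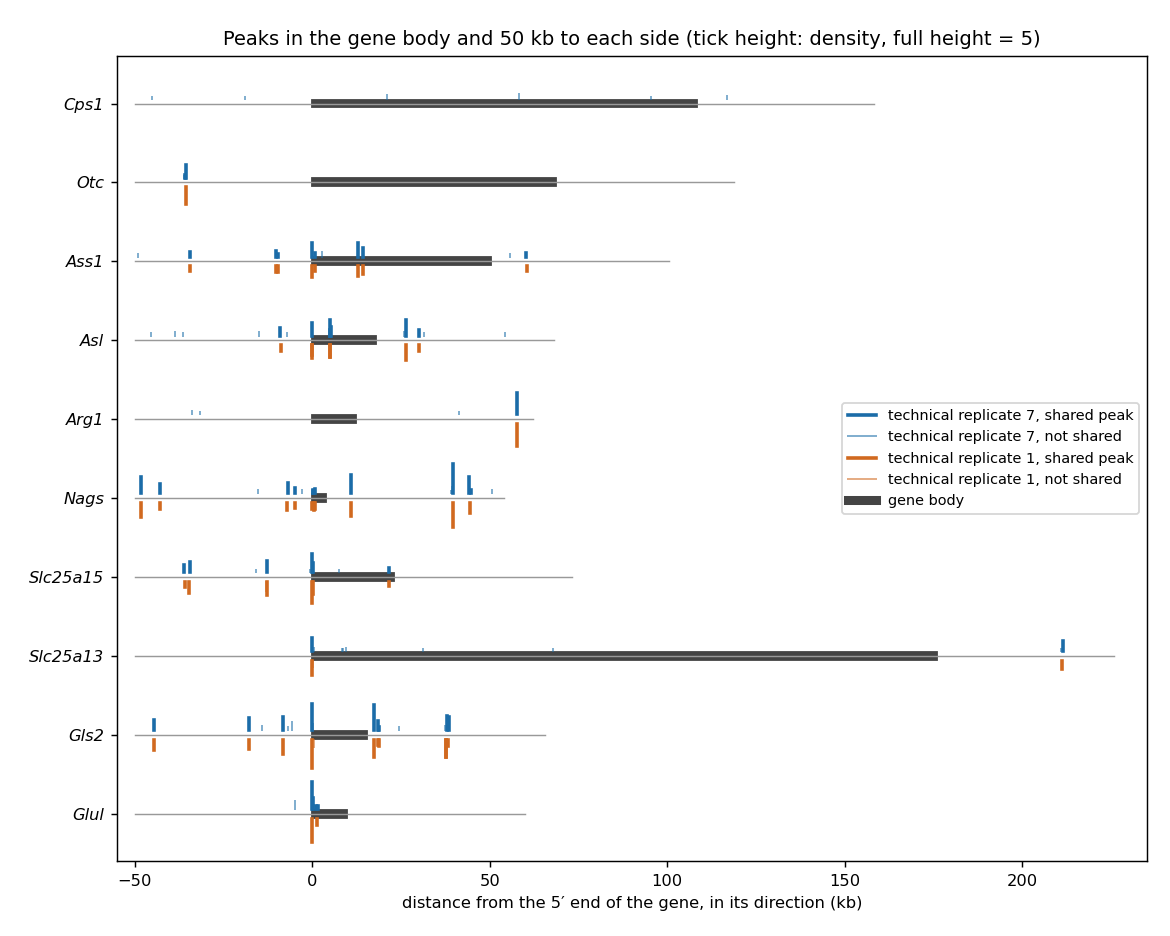
Peaks in the body of each gene (dark bar) and 50 kb to each side, by distance from its 5′ end (x axis, kb, in the direction of the gene). Ticks above the line are peaks of technical replicate 7 and ticks below it peaks of technical replicate 1. Tick height is the density, and thick ticks are shared. Cps1 has thin ticks alone, Otc and Arg1 have shared peaks only at the start of a neighbour, and Ass1 has a pair of shared peaks inside the gene.

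The 3 genes with closed starts had no distal shared peak in their windows, and Cps1 and Arg1 had distal peaks of technical replicate 7. Of all protein-coding genes with no start peak, 37.7% had a distal shared peak and 61.2% a distal peak of technical replicate 7. At Cps1, a window of 208.2 kb with no other protein-coding gene, technical replicate 7 had 6 peaks, 3 of them in introns, and technical replicate 1 had none. The strongest, at 58.4 kb inside the gene, had a density of 0.805 (percentile 62.3 of all peaks of technical replicate 7). The next, at 21.1 kb, had 0.521 (percentile 39.3). Both are printed above. Each lay over a hotspot of technical replicate 1, with a −log10 FDR of 1.82 at the stronger site and 1.40 at the weaker, and both were in 2 of 3 peak lists from an earlier processing of that library. So both sites had some trace in each library. The other 4 Cps1 peaks had densities of 0.276 to 0.393 and no hotspot in technical replicate 1.

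Otc had no distal peak in either library. Its 3 peaks in technical replicate 7 and 1 in technical replicate 1 all lay at the start of its neighbour Rpgr, between −36.2 and −35.5 kb from the Otc start. Arg1 had 3 distal peaks in technical replicate 7, with densities of 0.332, 0.429 and 0.497, and none in technical replicate 1. Its only shared peak lay at the start of the neighbour Med23 (3.38 in technical replicate 7 and 3.50 in technical replicate 1). Per 100 kb of window, distal peaks of technical replicate 7 numbered 2.88 at Cps1, 2.67 at Arg1 and 0 at Otc. The median was 0.972 over protein-coding genes with no peak at a start and 2.96 over all.

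Among the open genes, Ass1 had the most distal shared peaks, 6. Of these, 2 lay inside the gene. That at 12.9 kb, printed above, had a density of 2.08 in technical replicate 7 and 1.57 in technical replicate 1, close to the values of the Ass1 start itself (2.12 and 1.77). That at 14.2 kb had 1.33 and 1.29. The other 4 had densities of 0.453 to 0.921 in technical replicate 7, with 3 of them in exons of the upstream gene Hmcn2.

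Nags, in a gene-dense stretch with 6 other protein-coding genes, had 4 distal shared peaks, all between genes and upstream of it. The one at −48.4 kb had a density of 2.63 in technical replicate 7 and 2.30 in technical replicate 1. At −42.8 kb, where the CTCF consensus lies in a footprint, the values were 1.48 and 1.03, at −7.0 kb 1.59 and 1.07, and at −4.8 kb 0.913 and 0.828. Each of these 4 had a higher density in technical replicate 7 than the Nags start did, and for technical replicate 1 that was so at −48.4 kb alone.

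Gls2 also had 4 distal shared peaks. The strongest, between genes at −8.3 kb, had a density of 2.06 in technical replicate 7 and 2.32 in technical replicate 1. One in an intron of Rbms2, at −44.7 kb, had 1.61 in each library. Past the end of the gene, at 18.5 and 18.7 kb, were the other two. A further peak at −5.8 kb, with the CTCF consensus in a footprint, had 1.23 in technical replicate 7 and was not listed in technical replicate 1.

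Slc25a15 had 3 distal shared peaks. The one at −34.6 kb, printed above, had densities of 1.66 in technical replicate 7 and 1.83 in technical replicate 1. One at −36.0 kb had 1.13 and 0.818, and one in an exon of the gene, at 21.5 kb, had 0.605 and 0.677. Asl had 2, both in or near its neighbours: in an intron of Crcp at −9.0 kb, with 1.25 and 0.909, and in an exon of Gusb at 25.1 kb, with 0.877 and 0.939. Slc25a13 had 1, in an intron of Dync1i1 beyond the gene's 3′ end and 211 kb from its start, with 1.63 and 1.38. Of the 5 peaks of technical replicate 7 inside introns of Slc25a13 itself, with densities of 0.320 to 0.445, none was shared.

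Glul, with the strongest start in technical replicate 7, had few other sites. Its 1 distal shared peak, in its own intron at 1.5 kb, had a density of 0.413 in technical replicate 7 and overlapped one of 1.02 in technical replicate 1. The latter lay at a start of Teddm2, so the site was distal in technical replicate 7 alone. In each library the hotspot over it also reached the Glul start. The site at −4.8 kb, printed above with the CTCF consensus in a footprint, had 1.30 (percentile 78.4) in technical replicate 7. Technical replicate 1 listed no peak there, but had a hotspot of −log10 FDR 1.48 and 3 footprints, and the site was in 2 of the 3 earlier peak lists. Per 100 kb, Glul had 1.82 distal peaks of technical replicate 7, against 7.63 at Asl, 6.73 at Nags, 6.06 at Gls2 and 5.98 at Ass1.

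Motif letters at the 55 distal peaks were searched in 200 bp around each midpoint and set beside all 52996 distal peaks of technical replicate 7. C/EBP letters were in 9 of the 55, where 8.75% of all had them. The 9 lay at Cps1, Ass1, Asl, Arg1, Slc25a13 and Glul. CTCF was in 6 (10.7% of all), and in 5 of these the match lay wholly inside a footprint. The share of CTCF matches inside footprints over all distal peaks is not given here, so that count has no background. GATA was in 6 (7.53%), SP1 in 6 (12.4%), the TATA box in 5 (6.63%), FOXA in 3 (3.38%), TCF in 2 (2.63%) and ETS in 1 (2.38%). HNF4, CRE and NRF1 letters were in none (0.44%, 0.451% and 0.219%). Of the peaks with a match, 2 were shared for C/EBP, 2 for CTCF, 0 for GATA and 4 for SP1. For the TATA box 1 was shared, for FOXA 2, for TCF 1 and for ETS 1. Over all distal peaks the shared portion by motif is not given here, so these counts have no background. GATA factors act in blood formation, and C/EBP, FOXA and HNF4 factors in hepatocytes, among other roles. A match to these letters does not assign a peak to a cell type. The cell types behind these peaks were not tested.

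Other genes of nitrogen handling were more often open than not. Of 23 such genes, 17 were open at a start in both libraries, beside 59.1% of all protein-coding genes. The strongest by mean rank over both libraries were Odc1, which starts polyamine synthesis from ornithine (mean percentile 97.4), Glud1, glutamate dehydrogenase (96.1), and Prodh, proline dehydrogenase, which starts proline breakdown (93.9). The gene for the second arginase, the mitochondrial Arg2, was open with densities of 1.16 in technical replicate 7 and 1.37 in technical replicate 1, unlike Arg1. Slc25a12, the relative of Slc25a13, had 2.35 and 2.53. The values of Arg2 and Slc25a12 were picked after they were seen, for their relation to the genes above. The 6 without a shared start peak, also named after their values were seen, were the ammonia transporter genes Rhbg and Rhcg, Car5a, Aqp9, Slc25a2 and Slc38a5. Slc38a5 had a peak in each library (0.521 and 0.556) that did not overlap.

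Genes known to regulate the cycle or glutamine synthetase were mostly open. Of 12, 11 had a shared peak at a start, beside 59.1% of all protein-coding genes, and all 12 had one in technical replicate 7, beside 65.0%. The highest were Ctnnb1, which encodes beta-catenin (mean percentile 96.4), Foxa3 (94.5) and the Wnt target Axin2 (89.8). The hepatocyte regulator Hnf4a was without a shared one, with a peak of 0.717 in technical replicate 7 alone.

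Markers of several cell types, neuronal ones included, were read in the same way. None of 6 hepatoblast markers (Alb, Afp, Ttr, Hnf4a, Dlk1 and Krt8) had a shared start peak, while 5 had one in technical replicate 7, with densities of 0.421 to 0.869. Over all protein-coding genes, 59.1% had a shared start peak and 65.0% one in technical replicate 7. The median CpG decile of these 6 markers was 4, and 34.1% of the genes in that decile had a shared start peak. In their windows Hnf4a, Dlk1 and Krt8 had 6, 3 and 8 distal shared peaks, and Alb, Afp and Ttr had 0. The defining hepatoblast gene Alb had no start peak in either library. Shared start peaks were found at 4 of 6 erythroid markers, 3 of 3 blood progenitor markers, 3 of 3 mesenchymal markers, 2 of 3 endothelial markers, 1 of 3 macrophage markers and 2 of 3 neuronal markers. The markers without one were Hbb-y and Hba-x (erythroid), Adgre1 and Csf1r (macrophage), Cdh5 (endothelial) and Neurod1 (neuronal). Of these, Hba-x and Neurod1 had a start peak in technical replicate 7, with densities of 0.449 and 0.373, and the others had none in either library. The share of each cell type in the sample, and its part in the values above, was not tested.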

How the data were processed

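DNase-seq was measured in 2 technical replicates of 1 biological sample, on mm10 per the labels. No aligner, and no caller of peaks, hotspots or footprints, is given in the sources used here. The authors deposited peak lists called on each library, whose signal is a cut density of a scale that the headers do not state. The deposited hotspots carry a −log10 FDR, and those of an earlier processing of technical replicate 1 a score, which was not used. The deposited positions of technical replicate 1 carry an FDR, a p-value-like number below 0.05, and its deposited footprints a constant of 0.01. Each library had a shorter and a longer peak list. The lowest hotspot −log10 FDR under a peak was 3 in the shorter lists and 2 in the longer, so the shorter were taken as stricter and used. This reading comes from the values. Density steps were whole multiples, within 0.02 steps, for 100% of values under 2. Technical replicate 7 had 127152 hotspots and 107626 footprints, and technical replicate 1 had 50432 and 219621, from another processing.

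Starts came from the GENCODE vM21 basic annotation, and CpG content from GRCm38. Sequences came from RefSeq (GRCm38.p6). Motifs were searched on both strands. Computation used Python 3.11.15, numpy 2.4.6, pandas 2.3.3 and scipy 1.17.1, and the overlap code was tested on simulated data. The members and lists were chosen with earlier results of these data known. Some genes and motifs of the lists are not reported here, and the lists' counts leave those genes out. Named are all 10 members, of the nitrogen-handling and regulator lists the 3 highest by mean rank percentile and, where at most 3 lacked a shared peak, those, and of regions the strongest peaks and every shared distal peak. Tried were other starts, promoter windows, flanks, overlaps and lists, and each library alone. No test across samples was possible with 1 sample.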

Additional observations from a re-analysis of the deposited data

How the results depend on the processing

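The count of members with a shared peak at a start was 7 with the same genes under each of these changes: the 5′ end alone, all annotated starts, windows of 500 and 2500 bp, the longer lists, an overlap of 50% of the shorter peak, and each library alone. With hotspots of both libraries in place of peaks, an alternative added after seeing the data, it was 8, Arg1 included. The background share, 59.1%, was 56.0% with the 5′ end alone, 60.5% with all annotated starts, 61.5% with the longer lists, 61.0% and 57.6% with windows of 2500 and 500 bp, 64.5% with hotspots, and 59.6% to 65.0% with one library left out. A shared peak lay in 9 windows, in 7 with flanks of 20 kb and in 10 with flanks of 100 kb. With flanks of 100 kb the windows held 159 peaks of technical replicate 7 and 82 of technical replicate 1, with 81 shared, 201 and 91 hotspots, and 207 and 395 footprints. With flanks of 20 kb they held 85 and 37 hotspots and 68 footprints of technical replicate 7. As reported these counts were 94, 51, 50, 129, 56, 108 and 222. Earlier lists B and C of technical replicate 1 gave 85 and 91 peaks in place of 51, and the longer footprint list of technical replicate 7 gave 316. With one library left out, the peaks counted in place of 50 shared ones ranged from 51 to 94. These counts grow with the span or list by construction. Of 48 alternatives, 27 kept their value within 1.5 times or, for the background, within its counting error. With 1 group, no paired analysis was possible because there are no groups to pair.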

Other observations

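In the position list of technical replicate 1, the lowest FDR at a start was 1.52e-191 at Slc25a13, against 7.96e-54 at Gls2, the next lowest of the 10 genes, although the Slc25a13 start peak (density 2.20 in technical replicate 1) was weaker than that of Gls2 (4.57). A second position list of that library gave 5.9e-186 for Slc25a13. Slc25a13 also had the most positions below 0.05 within 1 kb of a start, 1984. The difference between these measures was not tested further.

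At Slc25a13, the intronic peaks of technical replicate 7 at 8.6 and 9.5 kb had no hotspot in technical replicate 1, yet both overlapped a peak in each of the 3 earlier lists of that library.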
